A study of Equus caballus with 18 samples.

Results

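The 9 genes described here encode enzymes, enzyme inhibitors and structural proteins of the extracellular matrix: the matrix metalloproteinases MMP2 and MMP13, their inhibitors TIMP1 and TIMP2, the collagen crosslinking enzyme LOX (lysyl oxidase), the small leucine-rich proteoglycans LUM (lumican), DCN (decorin) and BGN (biglycan), and the collagen-binding glycoprotein SPARC. They were chosen by symbol. A probeset was taken where the platform annotation gave it exactly 1 of these symbols, and each symbol had 1 probeset, so the genes are 9 of 30559 probesets and 9 of 16661 genes with a symbol of their own. Total RNA from biopsies of the superficial gluteal muscle of exercised adult Thoroughbred horses was measured with the equine EquGene-1.0-st array, on 18 arrays with 1 for each biopsy. The drug was clenbuterol, a beta-adrenergic agonist given by mouth as a bronchodilator. On the escalating regimen, 4 horses called E1 to E4 here received 0.8 μg/kg, 1.6 μg/kg and 2.4 μg/kg for 3 days each. They then received 3.2 μg/kg for 21 days, and every dose was given morning and evening. Their biopsy on day 28 fell within these 30 days of treatment. On the low dose regimen, 5 other horses called L1 to L5 received 0.8 μg/kg at each dosing for 30 days and were biopsied on day 14. Each horse was its own control, with a baseline biopsy taken the day before the first dose, when no horse had been treated. The comparisons ask whether the expression of these genes differed from baseline on each regimen, and whether the change differed between the regimens.

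Muscle fibers lie in a connective tissue of collagen fibrils, proteoglycans and basement membrane, which fibroblasts largely make and which carries the force of contraction to the tendon. Metalloproteinases cut this matrix and TIMPs block them by binding the active site, while LOX joins collagen and elastin chains covalently. Lumican, decorin and biglycan bind collagen fibrils and regulate their assembly, and SPARC binds collagen on its way into the matrix.

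Values are on the log2 scale as deposited, so a difference of 1 is a doubling of the signal, and they are arbitrary units that order arrays for 1 gene but do not order genes. Array medians were 4.45 to 4.5 on day 28, 4.06 to 4.22 at the escalating dose baseline, 2.42 to 2.74 on day 14 and 2.5 to 2.69 at the low dose baseline. Levels were therefore compared only within a regimen. Within an array, values had a standard deviation of 1.49 to 1.53 on day 28 and 1.71 to 1.80 at that baseline, so the day 28 arrays held a narrower range of values. The arrays of L4 and L5 had standard deviations of 1.20 to 1.41 at both times, against 1.67 to 1.75 in L1 to L3. The 14 muscle fiber markers averaged 7.94 on the day 14 array of L5, the lowest, and 8.96 or more on the others. The biopsies of E1, E4, L1, L2 and L3 at baseline had high KRT1, a keratin of the epidermis. Arrays give no counts, and the number of horses limits the precision.

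At day 28 of the escalating regimen, 6 of the 9 genes fell, 2 rose and 1 was not called. MMP2, TIMP2, LUM, DCN, BGN and SPARC fell by 1.17 to 1.97 on the log2 scale, and MMP13 and LOX rose by 1.66 and 0.81. A gene is called where its adjusted p is under 0.05 in a limma fit of the regimen's own arrays with horse as a block, adjusted over all probesets. Of all 30559 probesets tested, 20.2% were called lower and 24.5% were called higher in this comparison. In the 6 genes that fell every day 28 value lay below every baseline value, which held for 19.7% of all probesets. In MMP13 and LOX every day 28 value lay above every baseline value, as in 24.1% of all probesets. The median change of the 9 genes was -1.295, against 0.08 for all probesets. In RNA of a whole biopsy, fewer cells of a type and less RNA per cell cannot be told apart. Without E1 and E4, whose baseline biopsies stood apart in KRT1, 2 of the genes were called higher and 6 lower. That fit rested on 2 horses, E2 and E3. The percentages of all probesets above belong to the fit with every horse of the regimen, and those of the smaller fit are not given here. The like count therefore does not settle whether the calls depended on the biopsies of E1 and E4.

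**Figure D1:**
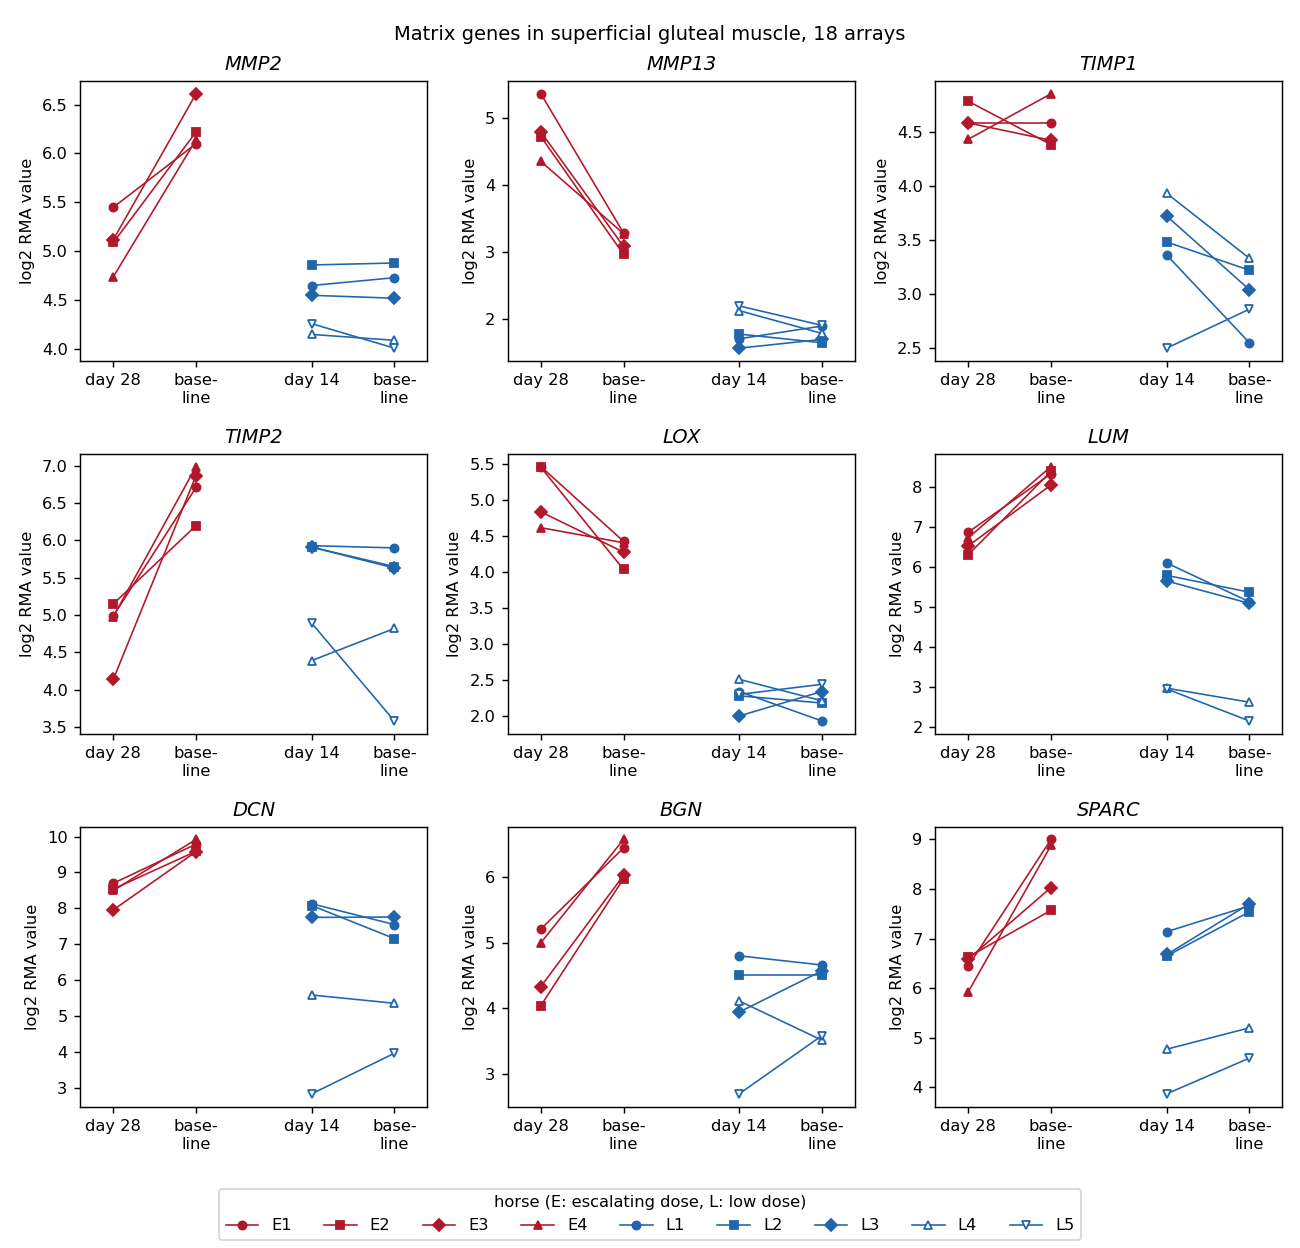
Log2 RMA value (vertical axis) of the 9 matrix genes on the 18 arrays, with a line joining the 2 biopsies of each horse, escalating dose (red, day 28 and baseline) left of low dose (blue, day 14 and baseline); vertical axes differ between panels and do not start at 0. All 4 red lines have day 28 below baseline in MMP2, TIMP2, LUM, DCN, BGN and SPARC and above it in MMP13 and LOX, while L4 and L5 (open symbols) lie below L1 to L3 in LUM, DCN and SPARC at both times.

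MMP2, or gelatinase A, is a protease made by fibroblasts that cuts denatured collagen and basement membrane collagen (probeset 15064092). Its values on day 28 were 5.45, 5.09, 5.12 and 4.74 in E1 to E4, against 6.10, 6.22, 6.61 and 6.14 at baseline. All 4 horses were lower on day 28, and the highest day 28 value, of E1, lay below the lowest baseline value. The means were 5.10 ± 0.29 on day 28 and 6.27 ± 0.23 at baseline (SD, n = 4), and the change was -1.17 (SE 0.18, limma adjusted p = 0.00182), a 2.25-fold lower signal.

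MMP13, or collagenase 3, cuts intact fibrillar collagen and is normally sparse in resting tissue (probeset 15109386). In E1 to E4 it was at 5.36, 4.72, 4.79 and 4.35 on day 28, against 3.28, 2.96, 3.08 and 3.27 at baseline. Every horse was higher on day 28, by 1.08 in E4 to 2.08 in E1, and the ranges were separate. MMP13 rose by 1.66 (SE 0.19, limma adjusted p = 0.000503), while MMP2 fell in the same 4 horses. MMP13 lay above 46.8% to 73.9% of the probesets of its array on day 28 and above 21.6% to 26.8% at baseline. No detection call was used, so its baseline signal may not be above background, and no fold is given.

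TIMP2 inhibits metalloproteinases and also takes part in the activation of pro-MMP2 at the cell surface (probeset 14958261). Day 28 values were 4.99, 5.15, 4.14 and 4.98 in E1 to E4, against 6.71, 6.20, 6.87 and 6.99 at baseline. E3 was the lowest horse on day 28 and had the largest fall, 2.73, while E2 had the smallest, 1.05. The means were 4.81 ± 0.46 on day 28 and 6.69 ± 0.35 at baseline (SD, n = 4), a change of -1.88 (SE 0.26, limma adjusted p = 0.00119).

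TIMP1, a secreted inhibitor that is induced in many tissues under remodelling, was the gene of the 9 that was not called (probeset 15127773). It was at 4.58, 4.78, 4.58 and 4.43 on day 28 in E1 to E4, against 4.58, 4.38, 4.42 and 4.85 at baseline. E2 and E3 were higher on day 28, E4 was lower and E1 was equal, and the ranges overlapped. The difference was 0.04 with a 95% interval of -0.37 to 0.44 (limma adjusted p = 0.893). A change of the size seen in TIMP2 lies outside that interval, and smaller changes in either direction lie inside it. The sign of the TIMP1 difference was negative under the other 3 scalings of the arrays, at -0.22 with quantile normalization, -0.29 with arrays centred on their medians and -0.18 with cyclic loess, none of them called.

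LOX crosslinks collagen and elastin and so stiffens the matrix (probeset 14983341). Its values on day 28 were 5.47, 5.46, 4.84 and 4.62 in E1 to E4, against 4.43, 4.04, 4.28 and 4.41 at baseline. Each day 28 value was above each baseline value, but the lowest day 28 value, of E4, was close to the baseline values, and the change ranged from 0.21 in E4 to 1.42 in E2. LOX rose by 0.81 (SE 0.22, limma adjusted p = 0.0207), the smallest change among the called genes of the 9. This call did not hold without E1 (0.73, limma adjusted p = 0.0739) or without E2 (0.60, limma adjusted p = 0.0792). It also did not hold with quantile normalization, median centring or cyclic loess, where the adjusted p was 0.0798, 0.102 and 0.0575 in limma. In all, the LOX call was lost in 7 of 15 alternatives. Among them was the methods' filter, which asks for a change of more than 2-fold, against 1.75-fold for LOX.

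The proteoglycans LUM, DCN and BGN carry a short protein core of leucine-rich repeats, with keratan sulfate chains on lumican and chondroitin or dermatan sulfate chains on decorin and biglycan. LUM (probeset 15060218) was at 6.88, 6.32, 6.54 and 6.74 on day 28 in E1 to E4, against 8.34, 8.40, 8.06 and 8.52 at baseline. The horses lay close together at each time, with falls of 1.46 in E1 to 2.08 in E2. The change was -1.71 (SE 0.16, limma adjusted p = 0.000244), a 3.27-fold lower signal.

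DCN (probeset 15060222), whose protein also binds growth factors of the TGF-beta family, was at 8.70, 8.54, 7.96 and 8.50 on day 28 in E1 to E4, against 9.79, 9.59, 9.58 and 9.92 at baseline. E3 had the lowest value on day 28 and the largest fall, 1.62. DCN changed by -1.295 (SE 0.16, limma adjusted p = 0.000667), a 2.45-fold lower signal. BGN (probeset 15130355) was at 5.21, 4.04, 4.33 and 5.00 on day 28 in E1 to E4, against 6.45, 5.98, 6.03 and 6.58 at baseline. E1 and E4 were the higher horses and E2 and E3 the lower ones at both times, and no day 28 value reached the baseline range. BGN fell by 1.61 (SE 0.16, limma adjusted p = 0.000309).

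SPARC, also called osteonectin, showed the largest mean fall of the 9 and also the widest spread between horses (probeset 14982078). It was at 6.45, 6.63, 6.59 and 5.93 on day 28 in E1 to E4, against 9.0, 7.57, 8.03 and 8.88 at baseline. The ranges were separate, and E1 and E4 had both the highest baseline values and the largest falls, 2.55 and 2.95, against 0.94 in E2 and 1.44 in E3. The change was -1.97 (SE 0.33, limma adjusted p = 0.00276), and the standard deviation of the change over the 4 horses was 0.94, against 0.27 to 0.70 in the other genes. The paired test of the methods, which estimates the spread of each probeset alone, gave SPARC an adjusted p of 0.0718.

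E1 and E4 differed from E2 and E3 at baseline in other genes as well. ADIPOQ, which encodes the adipocyte hormone adiponectin, was at 10.6 in both E1 and E4, against 5.08 in E2 and 6.31 in E3. KRT1 was at 6.90 and 7.12 in E1 and E4, against 3.8 and 2.82 in E2 and E3, and the collagen gene COL3A1 was at 7.33 and 7.23, against 5.20 and 5.66. On day 28 none of these genes separated the pairs, with ADIPOQ at 5.14 to 5.89, KRT1 at 2.62 to 3.20 and COL3A1 at 5.38 to 5.77. The 6 adipocyte markers had a median change of -2.36 in E1 and -2.58 in E4, against 0.20 in E2 and -0.32 in E3. The mean change of SPARC was -2.75 in E1 and E4 and -1.19 in E2 and E3. LUM changed by -1.62 in E1 and E4 and by -1.80 in E2 and E3, and DCN by -1.25 and -1.33 in the same pairs. The part of these markers in the changes of SPARC and the other genes was not tested.

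**Figure D2:**
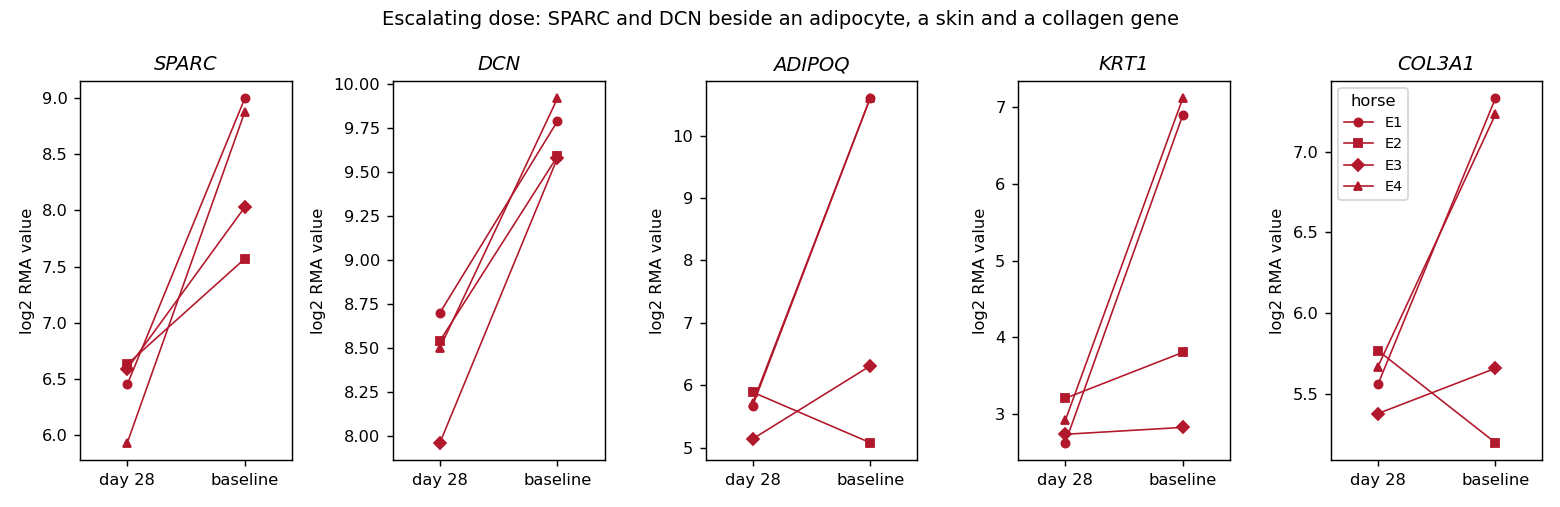
Log2 RMA value (vertical axis) of SPARC, DCN, the adipocyte gene ADIPOQ, the epidermal gene KRT1 and the collagen gene COL3A1 on day 28 and at baseline of the escalating regimen, 1 line for each of the 4 horses; vertical axes differ between panels and do not start at 0. E1 and E4 start high in SPARC (9.0 and 8.88), ADIPOQ, KRT1 and COL3A1 at baseline, while the 4 lines of DCN run nearly side by side.

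The change at day 28 varied with how bright a probeset was. When the 30559 probesets were ordered by their mean on the 8 escalating dose arrays and divided into 10 groups of like size, the median change was -1.07 in the brightest group and -0.52 in the next, where 65.8% and 49.0% of probesets were called lower. In the sixth group, that of TIMP1 and LOX, the median was 0.18 and 31.2% were called higher, and in the fourth, that of MMP13, it was 0.28 and 35.8% were called higher. LUM, DCN and SPARC belonged to the brightest group, MMP2 and TIMP2 to the next and BGN to the eighth. The fall of DCN was within the usual range of its group, where 40.0% of probesets had a lower change, and that of MMP2 had 27.6% below it. LUM had 21.3% of its group below it and SPARC 12.9%. TIMP2 and BGN lay nearer the lower end of their groups, with 7.98% and 6.22% below them. MMP13 lay near the upper end of its group, where 92.9% of probesets had a lower change than it, and LOX had 76.4%. The part of brightness in the changes of single genes was not tested.

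**Figure D3:**
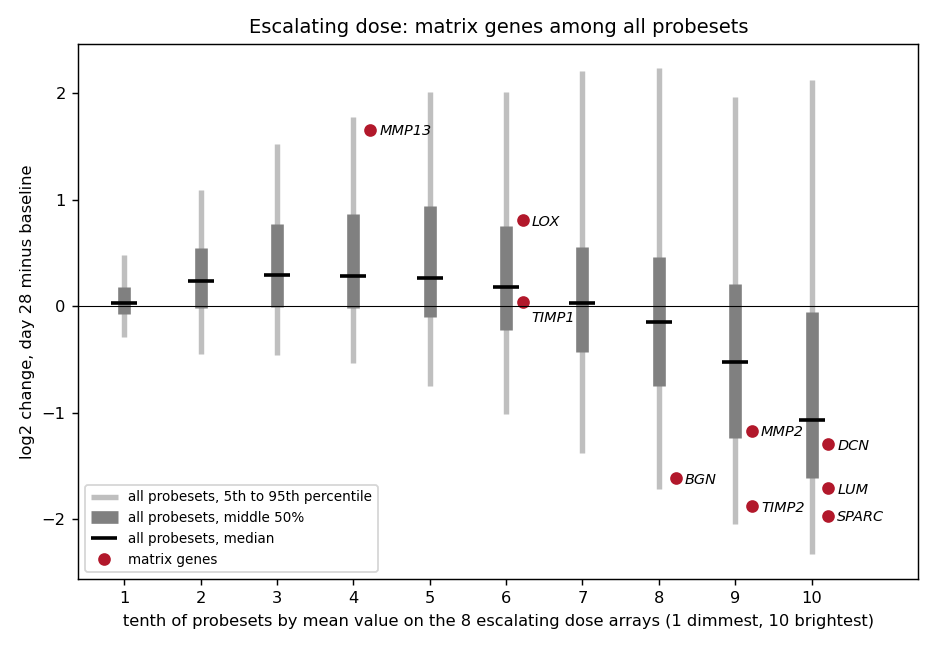
Log2 change, day 28 minus baseline (vertical axis) of the 9 matrix genes (red points) beside all probesets in 10 groups by mean value on the escalating dose arrays (horizontal axis, 1 dimmest to 10 brightest; grey bars show the 5th to 95th percentile and the middle 50%, black marks the median). The median falls to -1.07 in the brightest group, where DCN lies within the middle 50%, while BGN and TIMP2 lie near the lower end of their groups and MMP13 near the upper end of its own.

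Other scalings of the same 8 arrays gave other changes. Centring on the median moved every gene by the same amount, while quantile normalization and cyclic loess moved some genes up and others down. The median over all probesets was 0.08 as deposited, -0.10 after quantile normalization, -0.24 after centring each array on its median and -0.02 after cyclic loess. Cyclic loess is meant to remove differences that follow brightness, and how much of them remained was not measured. Of the probesets called, 54.9% were higher as deposited, 44.2% after quantile normalization, 33.1% after median centring and 54.4% after cyclic loess. Of all probesets tested, 20.2%, 24%, 32.8% and 18.5% were called lower under these scalings, in the same order. MMP13 remained called higher, and MMP2, TIMP2 and BGN lower, under all 4 scalings, at 1.27, -0.74, -1.40 and -1.34 with cyclic loess, where these were the calls among the 9. The changes of LUM, DCN and SPARC under cyclic loess were -0.49 (limma adjusted p = 0.0552), -0.18 (limma adjusted p = 0.394) and -0.76 (limma adjusted p = 0.18). LUM, DCN and SPARC were thus called lower as deposited, after quantile normalization and after median centring. With cyclic loess their changes stayed below 0 but were not called.

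**Figure D4:**
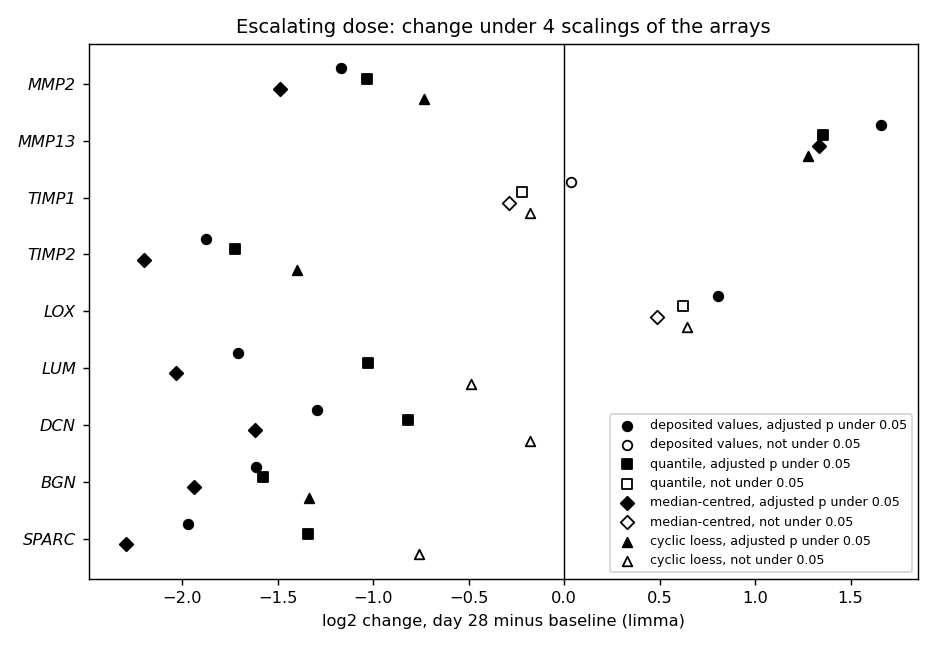
Log2 change, day 28 minus baseline (horizontal axis) of the 9 matrix genes under 4 scalings of the escalating dose arrays (circles deposited, squares quantile, diamonds median-centred, triangles cyclic loess); filled symbols have a limma adjusted p under 0.05. MMP2, MMP13, TIMP2 and BGN are filled throughout, while LUM, DCN and SPARC are open with cyclic loess (-0.49, -0.18 and -0.76) and LOX is filled as deposited only.

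At day 14 of the low dose, none of the 9 genes passed the test, and none of the 30558 probesets tested did (0% called by limma). The paired test of the methods called 2 probesets, neither of them among the 9. At an unadjusted p under 0.05 in limma, 2666 probesets passed, 4.35% of all tested being lower and 4.37% higher, and SPARC and LUM were 2 of them. SPARC was at 7.14, 6.65, 6.68, 4.77 and 3.87 on day 14 in L1 to L5, against 7.66, 7.54, 7.70, 5.20 and 4.59 at baseline. All 5 horses were lower on day 14, by 0.43 in L4 to 1.02 in L3, although the spread between horses was larger than the change and the ranges overlapped. The difference was -0.72 (SE 0.16, unadjusted p = 0.00203, limma adjusted p = 0.43).

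LUM was at 6.11, 5.80, 5.66, 2.98 and 2.96 on day 14 in L1 to L5, against 5.14, 5.38, 5.10, 2.63 and 2.16 at baseline. It was higher in all 5 horses, by 0.35 in L4 to 0.97 in L1, with ranges that overlapped because L4 and L5 were lower at both times. The difference was 0.62 (SE 0.16, unadjusted p = 0.00489, limma adjusted p = 0.463). Neither value is a call.

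TIMP1 was at 3.36, 3.48, 3.72, 3.93 and 2.5 on day 14 in L1 to L5, against 2.55, 3.22, 3.04, 3.33 and 2.86 at baseline, higher in 4 horses and lower in L5. Its difference of 0.40 had an interval of -0.07 to 0.87 (limma adjusted p = 0.609). TIMP2 was at 5.93, 5.91, 5.91, 4.39 and 4.89 on day 14, against 5.90, 5.65, 5.63, 4.82 and 3.58 at baseline. The TIMP2 difference of 0.29 rested mainly on L5, which was 1.31 higher, while L4 was 0.43 lower.

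DCN differed most between the low dose horses, at 8.13, 8.08, 7.75, 5.59 and 2.84 on day 14 in L1 to L5, against 7.55, 7.16, 7.76, 5.36 and 3.97 at baseline. L4 and L5 were the lowest horses at both times, and the change ran from -1.13 in L5 to 0.92 in L2, with a mean of 0.12. BGN changed by -0.89 in L5 to 0.60 in L4 and averaged -0.16. In L5, 12 of 14 muscle fiber markers were also lower on day 14, with a median change of -1.03, against -0.14 for the 9 genes. MMP2, MMP13 and LOX moved little, with means of 0.05, 0.09 and 0.07 and every horse between -0.34 and 0.41. The 95% intervals of these 3 genes reached from -0.32 at the lowest to 0.45 at the highest, so a change of 1 in the signal in either direction lay outside them. On these arrays MMP13 lay above 20.8% to 31.2% of the probesets and LOX above 32.5% to 48.1%. Without a detection call their signals may not be above background, so for MMP13 and LOX the intervals describe the signal and not the transcript. The median of the 9 genes was 0.09, against 0.01 for all probesets.

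L1, L2 and L3 had KRT1 at 8.74, 8.97 and 9.26 at baseline, against 3.11 and 2.18 in L4 and L5, and at 1.65 to 3.15 in all 5 horses on day 14. All 7 skin markers were lower on day 14 in L1, L2 and L3, with median changes of -2.66, -2.05 and -3.27, and the medians were -0.06 in L4 and 0.18 in L5. The mean change of SPARC was -0.81 in L1 to L3 and -0.57 in L4 and L5, and that of LUM was 0.65 and 0.57 in the same horses. The part of the skin markers in these differences was not tested. In the fit without L4 and L5, SPARC was at -0.81 (limma adjusted p = 0.133) and LUM at 0.65 (limma adjusted p = 0.181), and 178 probesets were called, none of them among the 9.

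**Figure D5:**
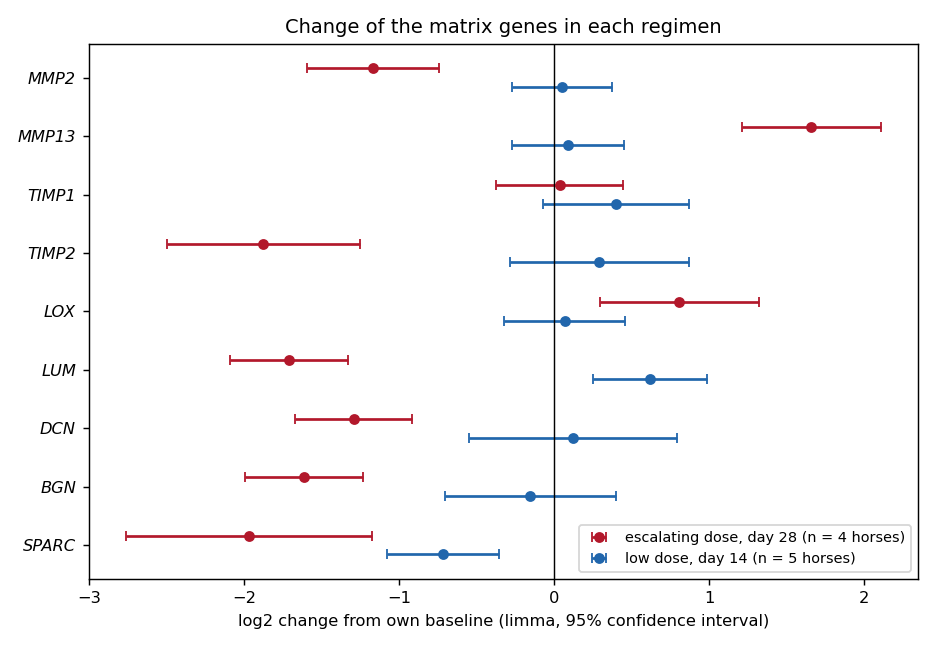
Mean log2 change from each horse's own baseline (horizontal axis) with its 95% confidence interval from limma for the 9 matrix genes, escalating dose at day 28 (red, n = 4 horses) above low dose at day 14 (blue, n = 5 horses). The red intervals exclude 0 for every gene but TIMP1, and the blue ones exclude 0 for LUM (0.62) and SPARC (-0.72), which were not called after adjustment over all probesets.

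The change at day 28 of the escalating dose minus the change at day 14 of the low dose was called in 7 of the 9 genes, 6 of them lower and 1 higher. In this fit of 18 arrays 16.9% of the 30558 probesets were called lower and 19.7% higher. LUM had the largest difference, with changes of -1.71 at the escalating dose and 0.62 at the low dose (difference -2.33, SE 0.22, limma adjusted p = 3.6e-05), and the horses of the regimens moved in opposite directions without exception. TIMP2 differed by -2.17 (limma adjusted p = 0.0014), BGN by -1.46 (limma adjusted p = 0.00375), DCN by -1.41 (limma adjusted p = 0.0114) and MMP2 by -1.22 (limma adjusted p = 0.00136). MMP13 differed by 1.57 (limma adjusted p = 0.000545). With cyclic loess the differences of LUM (-1.15) and MMP13 (1.00) were called and the others were not, at -1.09 for TIMP2, -0.86 for BGN, -0.40 for MMP2 and -0.13 for DCN (limma adjusted p = 0.0874, 0.0577, 0.236 and 0.74). With quantile normalization DCN was at -0.79 (limma adjusted p = 0.174). Without the pairing by horse the differences of LUM, BGN and DCN were not called (limma adjusted p = 0.12, 0.0612 and 0.484).

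SPARC was lower on the drug in all 9 horses of both regimens, and its changes of -1.97 at the escalating dose and -0.72 at the low dose differed by -1.25 (limma adjusted p = 0.0238). That call did not hold without E1 (-1.06, limma adjusted p = 0.0735), E4 (-0.93, limma adjusted p = 0.0682) or L1 (-1.20, limma adjusted p = 0.0508), and the difference was -0.47 without both E1 and E4 (limma adjusted p = 0.261). The difference was 0.08 with cyclic loess, and it was not called with quantile normalization (-0.71, limma adjusted p = 0.295) or without the pairing by horse (limma adjusted p = 0.412). The difference for LOX was 0.74 (limma adjusted p = 0.0586), and it was called without E4 (0.94, limma adjusted p = 0.0263). The difference for TIMP1 was -0.36, with an interval of -0.98 to 0.25. Without E1 and E4 the difference for DCN was -1.45 (limma adjusted p = 0.0639). Dose, day of biopsy, horses and array scale differ between the regimens together, and their parts cannot be told apart.

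Other genes of the same roles were read from lists of 99 genes, of which 94 were measured. Among 18 other metalloproteinases, 7 rose and 1 fell at the escalating dose, against 24.5% and 20.2% of all probesets, with a median of 0.28. Like MMP13, those that rose were dim at baseline, with means of 2.81 to 3.32. MMP8, the collagenase of neutrophils, averaged 5.22 on day 28 and 3.15 at baseline (2.06, limma adjusted p = 0.000248). MMP7 averaged 5.13 on day 28 and 3.24 at baseline (1.89), MMP27 averaged 5.04 on day 28 and 3.12 at baseline (1.92), and the stromelysin MMP3 averaged 4.33 on day 28 and 2.96 at baseline (1.37). The membrane-bound MMP15 fell by 1.97. MMP14, the membrane-bound activator of pro-MMP2, was not called as deposited (-0.32, limma adjusted p = 0.162) but was called lower under each of the other 3 scalings, at -0.64 to -0.69. Of 19 ADAMTS proteases, which cut procollagens and proteoglycans, 5 rose and none fell, against 24.5% and 20.2% of all probesets. ADAMTS6 (1.49), ADAMTS18 (1.43), ADAMTS19 (1.22) and ADAMTS3 (1.15) were among those that rose. With arrays centred on their medians, 6 metalloproteinases and 4 ADAMTS genes were higher, and 2 and 3 were lower.

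Among 9 other inhibitors of matrix proteases, 3 fell and 1 rose, against 20.2% and 24.5% of all probesets. TIMP3, which binds to the matrix, fell by 2.23 (limma adjusted p = 0.000153), TIMP4 by 1.65 and the secreted serpin SERPINF1 by 1.63, while A2M, a broad protease trap of plasma, rose by 0.84. Together with TIMP2, the transcripts of 3 of the 4 TIMP genes were thus lower on day 28, and these 3 were also called lower under each of the other scalings. With cyclic loess the falls were smaller, at -1.20 for TIMP3, -0.81 for TIMP4 and -0.72 for SERPINF1, and with median centring A2M was at 0.52.

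Of 19 other matrix proteoglycans, 3 fell and 5 rose, against 20.2% and 24.5% of all probesets, with a median of 0.01. The leucine-rich proteoglycans PODN and OGN (osteoglycin) fell by 1.98 and 1.48, as LUM, DCN and BGN did, and HSPG2, the basement membrane proteoglycan perlecan, fell by 1.93. EPYC (epiphycan), KERA (keratocan) and ASPN (asporin), which belong to the same leucine-rich family, rose by 1.65, 1.10 and 0.66, and SPOCK3 and VCAN (versican) rose by 0.96 and 0.85. ASPN was called in none of the other scalings nor without E1 and E4 (0.34 to 0.45), and KERA was not called without E1 and E4 (0.65, limma adjusted p = 0.0607). With cyclic loess OGN was at -0.79, HSPG2 at -1.16 and SPOCK3 at 0.56, each still called, and with median centring VCAN was at 0.53. The leucine-rich family held genes called in both directions under each scaling, with PODN and OGN lower and EPYC and KERA higher. After quantile normalization 5 of the 19 proteoglycans were lower and 4 higher, with a median of -0.24.

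Of 20 other crosslinking enzymes and matricellular proteins, 7 fell and 1 rose, against 20.2% and 24.5% of all probesets, with a median of -0.33. SPARCL1, the closest relative of SPARC, fell by 2.13 (limma adjusted p = 9.1e-05), by 1.51 with quantile normalization and by 0.93 with cyclic loess, each called. THBS4, a thrombospondin of muscle and tendon matrix, fell by 2.41, the lysyl hydroxylase PLOD1 by 1.88 and the transglutaminase TGM2 by 1.16, of which TGM2 was not called with cyclic loess (-0.30). POSTN (periostin) rose by 0.88, and by 0.51 with cyclic loess. Under the other scalings 8 to 11 of the 20 genes were lower, against 18.5% to 32.8% of all probesets. None of LOXL1, LOXL2, LOXL3 and LOXL4, the relatives of LOX, was called as deposited, with changes of -0.43 to 0.12. LOXL1 (-0.76 to -0.82) and LOXL3 (-0.48 to -0.50) were called lower under each of the other 3 scalings. Of 9 fibrillar collagens, COL11A1 rose by 1.88, COL5A2 by 0.74 and COL2A1 by 0.57. COL1A1 fell by 0.80, and COL3A1 (-0.76, limma adjusted p = 0.156) and COL1A2 (-0.11) were not called. COL3A1 was called lower with median centring (-1.08, limma adjusted p = 0.043), and COL1A2 was called higher with cyclic loess (0.54, limma adjusted p = 0.0487). COL1A1 was not called without E1 and E4, with quantile normalization or with cyclic loess, nor COL2A1 under any of these or with median centring. At the low dose no gene of these lists was called.

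Markers of other cells moved in both directions at the escalating dose, where 24.5% of all probesets were called higher and 20.2% lower. Among 10 fibroblast markers 3 fell and 1 rose, with a median of -0.26. CD34 fell by 1.51 and DPT by 0.81, and C1S rose by 0.84, while THY1, FAP, PI16, DDR2, MFAP5 and FBLN1 were not called. With cyclic loess 2 fibroblast markers were higher and 1 was lower, CD34 and DPT were not called (-0.30 and -0.08), and MFAP5 was higher (0.73). With median centring 7 were lower, MFAP5 among them (-0.71). The summed linear level of this list was 438 to 517 on day 28 and 582 to 788 at baseline, and that of the 9 matrix genes was 591 to 843 on day 28 and 1550 to 2160 at baseline. Such sums follow mainly the brightest probesets of a list and do not describe each of its genes. At baseline the brightest were CD34 among the fibroblast markers, at 7.8 to 8.34, and DCN, SPARC and LUM among the 9 genes. None of these was called with cyclic loess. Of 9 endothelial markers 6 fell, with a median of -1.39 (PECAM1 -2.78, CDH5 -2.42). That median was -0.57 with cyclic loess, -0.91 with quantile normalization and -0.835 without E1 and E4, with 5 or 6 markers lower in each. Their summed level was 306 to 337 on day 28 and 717 to 1170 at baseline. Of 9 smooth muscle and pericyte markers 6 fell, with a median of -1.08 (RGS5 -1.86, or -0.66 with cyclic loess, and TAGLN -1.41), at a summed level of 292 to 336 on day 28 and 691 to 825 at baseline. Of 9 leukocyte markers 5 rose and none fell, with a median of 0.59 (LYZ 2.16, PTPRC 0.89), at 409 to 536 on day 28 and 184 to 267 at baseline, and the median was 0.19 with quantile normalization or cyclic loess. Of 14 muscle fiber markers 5 fell, MYH2 by 5.03 and MYOZ1 by 1.85, at 27900 to 29700 on day 28 and 35300 to 38400 at baseline, although with cyclic loess 5 of them were higher and 3 lower. The 6 adipocyte markers summed to 249 to 305 on day 28 and 313 to 3070 at baseline, with FABP4 and LPL lower, of which FABP4 was the 1 called without E1 and E4 and neither was called with cyclic loess. The 7 skin markers summed to 103 to 133 on day 28 and 66.8 to 213 at baseline, with DSC3 (1.65), EPCAM, DSG1 and DSG3 higher and KRT1 lower (-2.29, and -0.34 without E1 and E4, where it was not called). In the 4 red blood cell markers 2 rose, ALAS2 by 0.83 and HBB by 0.78, and none was called with quantile normalization. The part of these cell types in the changes of the 9 genes was not tested.

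The genes whose profiles were most like those of the 9 were found by the root mean square distance between profiles over the 18 arrays, after the mean of each regimen was subtracted, among genes with a symbol of their own. The profile of MMP13 was closest to those of NOX3 (0.12), ZPLD1 (0.13) and CDH17 (0.15), against a median distance of 0.69 to all genes. LOX was closest to FGF7, PPEF2 and EIF5A2 at 0.16 to 0.18, and MMP2 to MBTPS1, TXNDC11 and ERGIC3 at 0.16 to 0.18. SPARC was closest to EPAS1 (0.33), the endothelial cadherin CDH5 (0.36) and EIF3I (0.37), against a median of 1.32. BGN was nearest to PRADC1, HEG1 and the collagen-degrading protease CTSK (0.32 to 0.33). The nearest gene was PICALM for LUM (0.26), RHOQ for DCN (0.23), ITGB5 for TIMP2 (0.26) and GTF2B for TIMP1 (0.24). Among the 9 genes themselves, the closest pair was MMP13 and LOX at 0.34, LUM and DCN were 0.62 apart, and MMP13 and DCN were the farthest apart at 1.75. These distances depend on how much a gene varied, and the arrays share their horses. A flat profile would lie 0.354 from LOX, 0.599 from MMP13, 1.22 from LUM and 1.4 from DCN. MMP13 was thus hardly nearer to LOX than a flat profile would be.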

How the data were processed

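Total RNA of 18 biopsies was labelled and measured, with 1 EquGene-1.0-st array each. The authors made the deposited log2 values with RMA (perfect match probes only) in Affymetrix Expression Console and evaluated them with Transcriptome Analysis Console 3.0, per the labels and their methods. Which arrays were normalized together was not given in the sources used here, so levels of the regimens were not compared. Normalization of this kind can move bright and dim probesets differently.

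The deposited values were used unchanged, with limma 3.58.1 in R 4.3.3. A missing value in the baseline array of L4, outside the 9 genes, left 30558 probesets for fits with that array. Symbols came from the platform annotation, where 16789 probesets had a single symbol, 343 several and 13427 none. Separate fits used the arrays of each regimen, and the difference between regimens on all 18, with horse as a block, moderated variances, two-sided tests and Benjamini-Hochberg adjustment over all probesets tested. The pairing comes from the horse named in each sample title, since both biopsies are of the same animal. Scripts were tested on simulated data.

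The text names all 9 genes, of each other list the called genes with the smallest p (at most 4 in a direction for matrix lists and 2 for marker lists) and the 3 nearest profiles. MMP14, ASPN, COL3A1, COL1A2 and the uncalled fibroblast and LOXL genes were named in addition, as were the adipocyte and skin genes that separated the horses, after their values were seen. Genes, lists and alternatives were chosen with earlier results of these data known. Alternatives were a filter keeping 50% of probesets, 3 other scalings, array weights, robust variances with a trend, omission of the block, the methods' paired t-test and their fold change filter, a fit of 18 arrays, and leaving out horses. Counts for the lists under other scalings and without E1 and E4 were added after the data were seen. Scanned images and PCR measurements were not used here.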

Additional observations from a re-analysis of the deposited data

Results flagged for a closer look

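Of 36 sets of values of 1 gene at 1 time in 1 regimen, 1 had a horse far from the others, and chance gives about 1 in 20. TIMP2 was at 4.14 in E3 on day 28 of the escalating dose, while the other 3 horses were between 4.98 and 5.15.

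For 7 genes the change differed between the regimens in limma, as escalating minus low dose. The differences were -2.33 for LUM, -2.17 for TIMP2, -1.46 for BGN, -1.41 for DCN, -1.25 for SPARC, -1.22 for MMP2 and 1.57 for MMP13. The regimens differ in dose, day, horses and array scale together.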

How the results depend on the processing

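At the escalating dose, 8 of the 9 genes were called as deposited, 4 with cyclic loess, and 7 to 8 when 1 horse was left out. The shares of all probesets called without 1 horse are not given here. Of all probesets tested, 20.2% were called lower as deposited and 18.5% with cyclic loess. Of the probesets called, 54.9% and 54.4% were higher in the same fits. The median of the 9 genes, -1.295 as deposited, was -1.03 with quantile normalization, -1.62 with median centring and -0.49 with cyclic loess. TIMP1 turned negative with these scalings (-0.22, -0.29 and -0.18) and ranged from -0.0867 to 0.187 without 1 horse. Of all probesets 13662 were called, against 8389 by the methods' paired t-test and 7924 by the methods' filter on fold change.

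At the low dose 0 of the 9 genes were called under every alternative run. Probesets called were 0 in limma, 2 by the methods' paired t-test, 206 by the methods' filter, 5 in the fit of 18 arrays and 178 without L4 and L5. Signs near 0 turned for DCN with quantile normalization (-0.0175), MMP2 with cyclic loess (-0.0343) and without L4 and L5 (-0.0233), and MMP13 without L4 and L5 (-0.0633). Without 1 horse, low dose changes ranged from -0.0025 to 0.08 for MMP2, -0.02 to 0.1675 for LOX, -0.0825 to 0.43 for DCN and -0.345 to 0.0275 for BGN.

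For escalating minus low dose, 7 genes were called, 2 with cyclic loess, and 3 with no replicate block, that is without the pairing by horse. How many of all probesets were called with cyclic loess in this comparison is not given here. The SPARC difference was 0.0804 with cyclic loess. Probesets called were 11179, against 6813 with the 50% filter and 6960 without the pairing. The causes were not tested, except that the filter tests fewer probesets. Arrays give no counts, so depth sets no limit. No detection call was used here for dim probesets such as MMP13 at baseline, or MMP13 and LOX on the low dose arrays.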
